A study of Mus musculus with 58 samples.

Results

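The gene set described here is the activating side of the circadian clock with genes grouped with it for the phase of their daily cycle: Arntl (Bmal1), Clock, Npas2, Nfil3, Rora and Cry1. The 6 genes were selected on their role in the clock and on measured values of these arrays, since the dose differences of clock genes were known when the set was made. Each was found by mapping the accession of its array feature to the gene, which gave 1 probe for each gene, 6 of 55681 probes and 6 of 20018 named genes. The differences between doses are therefore a description: numbers past limma's thresholds are given beside the share of all probes past them, and they support nothing.

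Males of the transgenic strain MutaMouse, about 13 weeks old and kept on 12 h of light and 12 h of dark, were gavaged daily for 28 days with olive oil alone or with the polycyclic aromatic hydrocarbon indeno(123,cd)pyrene (IP) dissolved in it. Lung, liver and forestomach were taken 72 h after the final dose. All groups received olive oil, and the 3 IP groups received a daily dose per kg of body weight of 12.5 mg, 25 mg or 50 mg (mg/kg-bw/day below). Lung had 5 mice in every group, whereas liver and forestomach had 4 vehicle mice and 5 mice at each dose, which made 20, 19 and 19 arrays. Mice 1 to 5 received the vehicle, mice 6 to 10 received 12.5, mice 11 to 15 received 25 and mice 16 to 20 received 50 mg/kg-bw/day, and the same number stood for the same mouse in each tissue. The hour of the day at which tissue was taken is not given in the sources used here.

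CLOCK, or its relative NPAS2, pairs with ARNTL, and the pair binds E-box sequences and drives transcription of the Per and Cry genes, of Nr1d1 and Nr1d2, which encode the REV-ERB repressors, and of Dbp, Tef and Hlf. PER and CRY proteins then inhibit the pair, while REV-ERB proteins repress and ROR proteins such as RORA activate Arntl and other genes through a shared element. Nfil3 encodes a repressor that binds the same D-box sequences as the activators DBP and TEF, and its RNA is known to peak many hours away from theirs.

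Promoters were searched for these elements because the members differed in how closely they followed Arntl. RefSeq windows of 300 bases around the annotated starts (build GRCm38.p6) were matched for 6 of 6 genes, in 9 windows, 3 of them for Clock and 2 for Arntl. The 7-letter ROR and REV-ERB element TAGGTCA was found on either strand in windows of Arntl and Nfil3 and in 2.61% of all 32851 windows. Its form TAGGTTA was found for Arntl and in 1.44% of windows. The E-box CACGTG was found for Cry1 and in 7.15% of windows, and its variant CACGTT for Cry1 and in 4.68%. The D-box TTACGTAA (0.119% of windows) and its form TTATGTAA (0.938%) were not found in any member window. These matches describe letters and not bound sites. Capitals mark the matched element below, read 5′ to 3′ on the strand of the gene.

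Arntl, chr7:113207494-113207522, plus strand: tggtcggaaagTAGGTTAgtggtgcgaca
Arntl, chr7:113207530-113207558, plus strand: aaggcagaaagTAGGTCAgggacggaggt
Nfil3, chr13:52981040-52981069, minus strand: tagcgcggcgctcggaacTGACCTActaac
Cry1, chr10:85185099-85185143, minus strand: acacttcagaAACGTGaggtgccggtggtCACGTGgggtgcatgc

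The first Arntl stretch spans the annotated start, running from position −17 to 12 relative to it, and the second lies downstream of it, at 20 to 48. Their elements begin 36 bases apart. The starts used for Arntl and Nfil3 lie inside the annotated span of the gene. The Nfil3 stretch ends at the base before the start and holds the element on the opposite strand. The Cry1 stretch lies at −89 to −45, with the variant (read on the opposite strand) and the E-box beginning 19 bases apart. The genes themselves lie on chromosome 7 from 113178471 to 113314126 (Arntl), chromosome 5 from 76209868 to 76305603 (Clock), chromosome 1 from 39193702 to 39363240 (Npas2), chromosome 13 from 52967209 to 52982878 (Nfil3), chromosome 9 from 68653404 to 69388246 (Rora) and chromosome 10 from 85131700 to 85185054 (Cry1).

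Every value below is a log2 ratio of the tissue's Cy5 signal over the Cy3 signal of a universal reference RNA from 11 mouse cell lines, so that a value of 1 means double the reference, and the values of different genes are not on a common scale. The share of probes whose Cy5 signal stood well above background ran from 53 to 90.7% over the lung arrays, 37.6 to 78.9% in liver and 43 to 85.9% in forestomach. It was over 70% on 11 of the 58 arrays, namely lung mice 3, 8, 13, 14 and 18, liver mice 9, 15, 16 and 20, and forestomach mice 8 and 18. Some of the results below are given with and without these arrays, and the others only with them. The lung and forestomach arrays shared 5 slides, on which each dose had a column and each tissue a row of its own, so that column and dose cannot be told apart. Of the arrays over 70%, lung mice 3, 8, 13 and 18 and forestomach mice 8 and 18 were all on slide 2. These were all the lung arrays of that slide, so leaving out the high lung arrays removes a whole slide of lungs. Liver was on 3 other slides read with a later version of the scanner software. The 6 markers of each tissue (for example Sftpc in lung, Alb in liver and Krt5 in forestomach) were all above background on every vehicle array of that tissue, and their mean log2 ratio was 5.84 to 6.26 in lung, 7.32 to 8.37 in liver and 5.03 to 5.78 in the forestomach.

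Arntl, Clock, Nfil3 and Rora were well above background on all 58 arrays. Npas2 was so on 18 of 20 lung, 6 of 19 liver and 13 of 19 forestomach arrays, and Cry1 on 2 lung arrays only (mice 2 and 6). Cry1 values, which lay between −0.36 and 0.52 in all mice, thus mostly describe background.

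In vehicle mice the gene that differed most between tissues was Nfil3, which was far higher in liver than in lung or forestomach. Clock was highest in forestomach and Rora in liver. Under median centring (each array shifted to a median of 0, with no loess) Rora was not highest in liver. Clock in forestomach then missed the thresholds given below against lung, and it missed them against both tissues without forestomach mouse 1. The contrast between tissues of vehicle mice was not used to choose the genes, and it was tested with limma over all probes. Its p-values rest on the spread within all 12 groups of the joint fit, dosed mice included, and not on vehicle mice alone. That fit treated tissues of the same mouse as independent samples. In bulk tissue, fewer cells of a type and less RNA per cell cannot be told apart. Of the 6 genes, 2 passed an adjusted p of 0.05 and a 1.5-fold difference between lung and liver, where 26.8% of all probes did, 1 between lung and forestomach, where 19.5% did, and 3 between forestomach and liver, where 22.7% did. These counts were of few genes and were not set against the background by a test.

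Arntl, the obligate partner of the activating pair, read 1.29, 1.32, 0.40, 0.30 and 0.85 in the lungs of vehicle mice 1, 2, 3, 4 and 5. In liver it read 1.28, 1.61, 0.61 and 1.67 in mice 1, 2, 3 and 5, and in forestomach 0.69, 0.48, 0.74 and 0.95. The tissues overlapped, with means of 0.83 ± 0.48 (SD, n = 5), 1.29 ± 0.48 (n = 4) and 0.71 ± 0.19 (n = 4). Lung lay 0.46 below liver (SE 0.263, adjusted p = 0.179) and forestomach 0.58 below liver, a difference of −0.58 (SE 0.277, adjusted p = 0.115), and neither passed the test. Both depended on vehicle mouse 3, whose liver value was the lowest: without it the differences were −0.69 (adjusted p = 0.0466) and −0.81 (adjusted p = 0.0288). Under median centring the difference of lung from liver turned to 0.69 (adjusted p = 0.0915) and that of forestomach from liver was −0.05 (adjusted p = 0.942).

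Clock, which encodes the DNA-binding partner of ARNTL, read 0.60, 1.00, 0.78, 0.49 and 0.60 in vehicle lungs of mice 1 to 5. Its liver values were 0.67, 0.76, 0.33 and 0.89, and its forestomach values 2.10, 1.41, 1.09 and 1.42, for mice 1, 2, 3 and 5. All 4 forestomach values lay above every lung and liver value. Forestomach was 1.79-fold above liver (log2 difference 0.84, SE 0.246, adjusted p = 0.0052), and lung lay below forestomach by 1.75-fold (−0.81, SE 0.233, adjusted p = 0.00486). Lung and liver differed by 0.03 (adjusted p = 0.943). Without forestomach mouse 1 both forestomach differences missed the test, at −0.61 (adjusted p = 0.0571) against lung and 0.64 (adjusted p = 0.0532) against liver. Under median centring the difference of lung from forestomach was −0.15 (adjusted p = 0.743), and Clock was 0.99 higher in lung than in liver (adjusted p = 0.00798).

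Npas2, the relative of Clock, read 1.05, 0.61, 0.17, 0.55 and 0.62 in vehicle lungs of mice 1 to 5. In liver it was not well above background in any vehicle mouse, with measured values of 0.07 to 0.37, and in forestomach it was above background in 2 of 4, with values of 0.05 to 0.63. With loess, lung was at least 1.31-fold above liver, counted against the dimmest signal that stood above background. The fitted difference of 0.41 (SE 0.143) had an adjusted p of 0.0166 without reaching 1.5-fold. Under median centring the difference was 0.15 (adjusted p = 0.434), smaller than that bound, so the bound depends on the normalization.

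Rora, the nuclear receptor that activates Arntl, read 2.63, 2.69, 2.43 and 2.61 in livers of vehicle mice 1, 2, 3 and 5. Lung values of mice 1 to 5 were 1.28, 2.04, 0.93, 1.42 and 1.32, and forestomach values of mice 1, 2, 3 and 5 were 2.12, 1.40, 1.65 and 1.86. Every liver value lay above every value of the other tissues. Liver was 2.29-fold above lung (lung minus liver −1.19, SE 0.229, adjusted p = 1.78e-05) and 1.78-fold above forestomach (forestomach minus liver −0.83, SE 0.241, adjusted p = 0.00478). Lung and forestomach overlapped and differed by −0.36 (adjusted p = 0.258). Under median centring the difference of lung from liver was 0.0067 (adjusted p = 0.987) and that of forestomach from liver −0.29 (adjusted p = 0.601).

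Nfil3, the D-box repressor, read 2.17, 1.72, 1.09 and 2.00 in livers of vehicle mice 1, 2, 3 and 5, above the reference in each. In lung it read −0.66, −0.11, −1.0, −1.10 and −0.96 in mice 1 to 5, and in forestomach −0.07, −0.12, −0.92 and −0.77 in mice 1, 2, 3 and 5. The lowest liver value was above the highest value of the other tissues. Liver was 5.7-fold above lung (lung minus liver −2.51, SE 0.232, adjusted p = 1.46e-13) and 4.64-fold above forestomach (adjusted p = 5.55e-11), while lung and forestomach differed by −0.29 (SE 0.232, adjusted p = 0.379). Under median centring liver stayed higher, with differences of −1.42 for lung (adjusted p = 0.000301) and −1.78 for forestomach (adjusted p = 5.25e-05). Liver was on its own slides and software version, so for every difference with liver, tissue and these cannot be told apart.

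In the lungs of IP mice all 6 genes had a lower mean than in vehicle lungs at each dose, with the largest differences at 25 and 50 mg/kg-bw/day in Nfil3 and Arntl, except that Rora at each dose and Arntl at 12.5 mg/kg-bw/day were slightly higher under median centring and Npas2 at 12.5 mg/kg-bw/day with the scanner's own log ratio. The median difference of the 6 genes was −0.14, −0.27 and −0.32 on the log2 scale at the low, middle and high dose, where the median over all probes was 0.0021 or less at each dose. The number past both thresholds was 0 of 6, 0 of 6 and 1 of 6, where 0, 0.0126 and 0.079% of all probes passed, and limma's unadjusted p was under 0.05 for 2, 3 and 4 of them and for 3.92, 6.54 and 8.81% of all probes. With slide as a block, which the layout of 1 lung of each group per slide allows, the number at 25 mg/kg-bw/day was 1 (Nfil3). That fit called 59 of all probes at this dose, against 7 without the block. The set was chosen with this contrast known, so nothing is read from these numbers.

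The gene past the thresholds in lung at 50 mg/kg-bw/day was Nfil3. Its lung values were −0.90, −0.91, −1.36, −0.97 and −1.59 in mice 6 to 10, −1.78, −1.28, −1.42, −1.99 and −1.62 in mice 11 to 15, and −1.53, −1.45, −1.90, −1.72 and −1.80 in mice 16 to 20. From 25 mg/kg-bw/day upward every IP mouse lay below the lowest vehicle mouse (−1.10). The group means were −0.76 ± 0.40 in vehicle, −1.15 ± 0.31, −1.62 ± 0.28 and −1.68 ± 0.19 (SD, n = 5 each), which gave differences of −0.38, −0.85 and −0.91 (SE 0.177). Within each of the 5 slides the IP lung was below the vehicle lung of that slide at every dose, by −1.34 to −0.70 at the highest. The difference at 50 mg/kg-bw/day was −0.92 without the 5 lung arrays with a high share of probes above background, and in that smaller fit the call was lost.

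Genes whose 5 IP lungs were all below all 5 vehicle lungs numbered 0 of 6 at 12.5, 1 of 6 at 25 and 1 of 6 at 50 mg/kg-bw/day, Nfil3 in both cases, against 0.214, 0.417 and 0.693% of all probes. Of the other 5 genes, each had at least 1 IP lung within the range of the vehicle lungs at every dose.

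Arntl lung values were 1.16, 0.64, 0.07, 0.95 and 0.67 in mice 6 to 10, 0.29, 0.87, 0.62, −0.47 and 0.54 in mice 11 to 15, and 0.24, 0.46, 0.17, 0.05 and −0.38 in mice 16 to 20. At the highest dose 4 of 5 mice were below every vehicle mouse, and the fifth, mouse 17, was above vehicle mice 3 and 4. The differences from vehicle were −0.14, −0.46 and −0.73 (SE 0.247), and the means at the highest dose and in vehicle were 0.11 ± 0.31 and 0.83 ± 0.48. On the 5 slides Arntl at 50 mg/kg-bw/day was lower than vehicle each time, by −1.06 to −0.24, whereas at the lower doses it was lower on 3 of 5. The difference at 50 mg/kg-bw/day was −0.85 without the 5 lung arrays with a high share and −0.47 under median centring.

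Clock lung means were 0.69 ± 0.20 in vehicle and 0.42 ± 0.15, 0.43 ± 0.13 and 0.43 ± 0.12 at rising dose, so that the difference was −0.27, −0.26 and −0.27 (SE 0.0956). Under median centring it was −0.11, −0.04 and −0.04. It was lower on 5 of 5 slides at each dose, by −0.52 to −0.17 at the highest. Npas2 at 50 mg/kg-bw/day read 0.52, −0.16, 0.12, 0.38 and 0.25 in mice 16 to 20, of which mice 17 and 20 were not well above background, and differed from vehicle by −0.38 (SE 0.15), or by −0.46 without the 5 arrays with a high share. Rora differed by −0.14, −0.11 and −0.14 (SE 0.146) and was lower on 3 of 5 slides at each dose. Cry1 differed by −0.14, −0.27 and −0.18, at background.

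**Figure D1:**
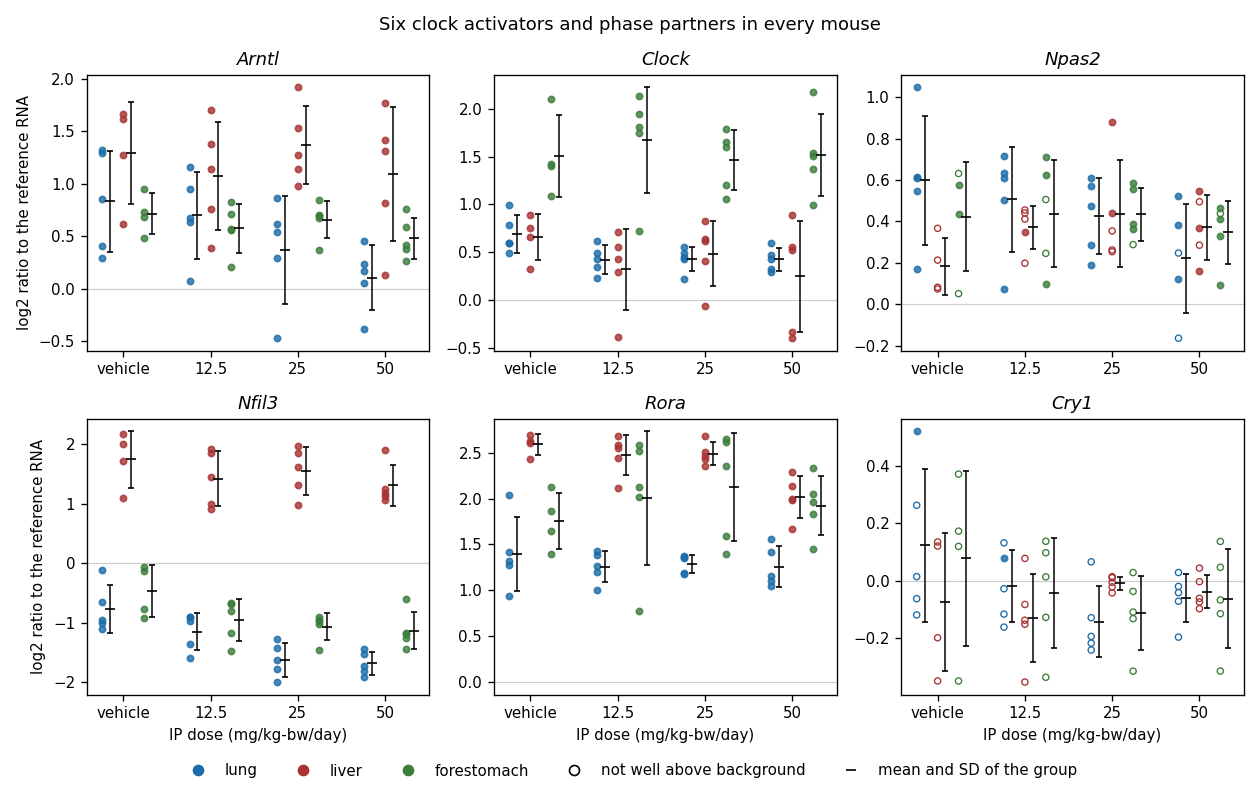
Log2 ratio of tissue Cy5 over reference Cy3 for the 6 genes (rows of panels) against IP dose in mg/kg-bw/day in lung, liver and forestomach, with 1 point per mouse and the mean ± SD. Lung Nfil3 means run from −0.76 in vehicle to −1.68 at the highest dose, with no overlap from 25 mg/kg-bw/day upward.

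**Figure D2:**
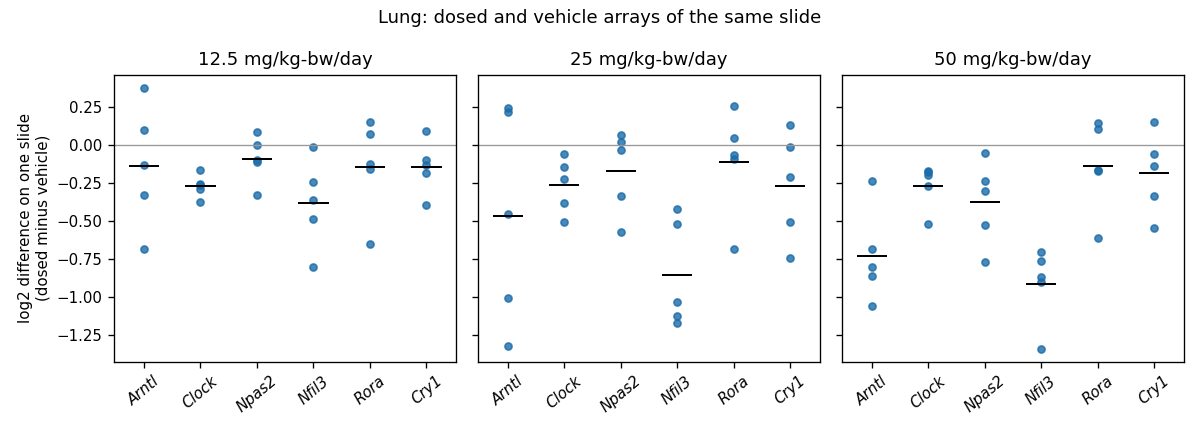
Difference of each IP lung from the vehicle lung on the same slide (log2, 5 slides) for the 6 genes at each dose in mg/kg-bw/day. Nfil3 and Clock lie below 0 on all 5 slides at every dose, and Arntl and Npas2 do so at 50 mg/kg-bw/day.

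Markers of some other cell types and some handling genes also differed in mean between vehicle lungs and those at 50 mg/kg-bw/day. The 6 fat cell markers (Adipoq and others) were all lower at 50 mg/kg-bw/day, with a median difference of −1.47. Their mean log2 ratio per array was 1.00 to 3.84 in vehicle and 0.88 to 1.53 at that dose. The 6 heart muscle markers were all lower too (median −1.14), with array means of 1.58 to 4.13 in vehicle and −0.10 to 2.66 at 50 mg/kg-bw/day. The 4 measured heat shock chaperones were lower (median −1.07, array means of 0.39 to 2.30 against −0.39 to 0.32), and the 4 B cell markers were higher (median 0.87, array means of −0.16 to 1.31 against 1.33 to 1.75). Of all these, 1 fat cell marker (Ucp1, −3.05) and 1 chaperone (Hspa1a, −2.22) passed the thresholds. Of 4 genes that respond to glucocorticoids 3 were lower (median −0.62), with array means of 0.66 to 2.22 in vehicle and 0.74 to 1.36 at 50 mg/kg-bw/day. Limma's unadjusted p was under 0.05 for 5 fat cell, 0 heart muscle and 3 B cell markers, 3 chaperones and 1 glucocorticoid-responsive gene. It was so for 8.81% of all probes. The median difference was 0.06 for the 6 lung markers, −0.03 for the 4 T cell markers and −0.13 for the 5 skeletal muscle markers. In these 3 lists 0 genes had an unadjusted p under 0.05 by limma. The 2 cold-induced genes, also linked to handling, were both higher (median 0.34), 1 of them with such a p. The part of these genes in the lung values of the clock genes was not tested.

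In the forestomach Nfil3 again lay furthest below vehicle at each dose, and in the liver Rora did at 50 mg/kg-bw/day. Neither tissue had a call among the 6 genes at any dose, where 0% of all probes passed at each of the 3 doses in liver and 0% at each in forestomach. Limma's unadjusted p was under 0.05 for 0, 1 and 1 of the 6 in liver at rising dose, where it was for 2.58, 4.42 and 6.84% of all probes, and for 1 at each dose in forestomach, where it was for 4.12, 3.59 and 3.89%. Of the 6 genes, a lower mean was found for 5, 3 and 4 in liver at rising dose, and for 3, 4 and 4 in forestomach. Under median centring the direction of all 6 genes turned in liver at 50 mg/kg-bw/day, with Arntl, Clock, Nfil3 and Rora at 0.46, 0.29, 0.13 and 0.0046 and Npas2 and Cry1 at −0.02 and −0.19. In forestomach Arntl turned at each dose (0.01, 0.26 and 0.15) and Clock and Npas2 at 25 mg/kg-bw/day (0.26 and −0.03).

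Forestomach Nfil3 read −0.66, −0.68, −1.16, −0.80 and −1.48 in mice 6 to 10, −0.96, −0.97, −0.90, −1.46 and −1.02 in mice 11 to 15, and −1.26, −0.60, −1.18, −1.19 and −1.44 in mice 16 to 20. All 15 IP mice were below the vehicle mean of −0.47 ± 0.44 (SD, n = 4), but the groups overlapped. The differences were −0.49, −0.59 and −0.66 (SE 0.209), and on the 4 slides with a vehicle forestomach the IP forestomach was lower each time at each dose. The difference at 50 mg/kg-bw/day was −0.25 under median centring. Markers of the glandular stomach, the adjoining part of the organ, had array means of 0.70 to 6.65 in vehicle and 1.57 to 6.74 at 50 mg/kg-bw/day, and 6 of 7 were lower at that dose (median −0.75). The 4 heat shock chaperones were lower too (median −0.99, array means of 0.92 to 2.02 against 0.24 to 1.28). Of the 6 fat cell markers 5 were higher at that dose and 1 lower (median 1.25). Their array means were 1.40 to 1.77 in vehicle and 1.27 to 5.22 at 50 mg/kg-bw/day, with medians over the arrays of 1.56 and 1.62. The part of any of these lists in the values of Nfil3 was not tested. Forestomach Arntl differed from vehicle by −0.23 (SE 0.132) at 50 mg/kg-bw/day and Clock by 0.01 (SE 0.271). None of the 6 genes had every forestomach at that dose below every vehicle forestomach, which 0.769% of probes did.

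Liver Rora read 1.99, 2.29, 1.98, 2.13 and 1.67 in mice 16 to 20, all below the lowest vehicle liver (2.43), as did 1 of 6 genes and 1.59% of all probes. The difference at 50 mg/kg-bw/day was −0.58 (SE 0.123), against −0.12 and −0.10 at the lower doses, and it was lower than vehicle on 3 of 3 slides. It was −0.46 without the 4 liver arrays with a high share of probes above background, and 0.0046 under median centring. In the same livers the 4 heat shock chaperones were lower (median −0.48, array means of −0.43 to 1.51 in vehicle and −0.91 to −0.14 at 50 mg/kg-bw/day), as were all 6 liver markers (median −0.42, array means of 7.32 to 8.37 against 7.16 to 8.03) and 3 of 4 glucocorticoid-responsive genes (median −0.41, array means of 0.31 to 1.47 against 0.35 to 0.55). Of the 4 B cell markers 3 were higher (median 0.23, array means of −2.05 to −1.55 against −1.60 to −1.29). None of these genes passed the thresholds by limma, with an unadjusted p under 0.05 for 2 chaperones, 2 glucocorticoid-responsive genes, 2 B cell markers and 0 liver markers, and their part in the value of Rora was not tested.

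Liver Clock at 50 mg/kg-bw/day read −0.33, 0.89, 0.53, 0.56 and −0.40 in mice 16 to 20, a difference of −0.41 (SE 0.26) from vehicle. The 2 negative values and those of mice 9 (−0.38) and 15 (−0.06) were the 4 liver values of Clock below 0, and they came from the 4 liver arrays on which over 70% of probes stood above background. The other 15 liver arrays gave 0.29 to 0.89, and without the 4 arrays the difference was −0.01. Liver Nfil3 read 1.25, 1.19, 1.90, 1.14 and 1.06 in mice 16 to 20 and differed from vehicle by −0.44 (SE 0.259), with overlap. Liver Arntl read 0.82, 1.31, 1.77, 1.42 and 0.14 in the same mice and differed by −0.20 (SE 0.312), with the lowest and the highest value on either side of the vehicle range. Without the 4 arrays with a high share, 2 of them mice 16 and 20, the Arntl difference turned to 0.21 and that of Nfil3 was −0.34.

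The difference at 50 mg/kg-bw/day was then compared between tissues in a joint limma fit. Of the 6 genes, 0 passed an adjusted p of 0.05 between lung and liver, where 0.0162% of probes did, 0 between lung and forestomach, where 0.0144% did, and 0 between forestomach and liver, where 0.00359% did. At an unadjusted p of 0.05 limma gave 1, 0 and 1 of the 6. No share of all probes at that cut is at hand to set beside these counts, so nothing is read from them. For Nfil3 the lung effect minus that in liver was −0.48 (SE 0.319) and minus that in forestomach −0.25 (SE 0.319). For Arntl the same values were −0.53 (SE 0.361) and −0.49 (SE 0.361). These numbers rest on the dose differences that chose the genes and are a description as well.

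Members differed in how much they varied between mice of the same group. Arntl had a residual SD of 0.436 in lung, larger than that of all but 4.42% of the 34698 probes of lung compared, and of 0.511 in liver, with 7.45% of 22967 probes larger. In forestomach it was 0.202, with 63.2% larger. Rora had its largest SD in forestomach, with 0.53 in forestomach (8.27% larger), 0.249 in lung and 0.183 in liver (78.4% larger). Nfil3 lay at 0.307, 0.421 and 0.335 in lung, liver and forestomach. Under median centring the SD of Arntl was 0.519, 0.515 and 0.538 in lung, liver and forestomach, with no such gap between tissues, and that of Rora 0.446, 0.358 and 0.604. Dbp, an output of the pair that Arntl forms, varied still more, at 1.1, 1.34 and 0.75.

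Within dose groups Arntl and Nfil3 rose and fell together from mouse to mouse in lung and in liver, and Dbp went the other way. These correlations use the deviation of each mouse from its group's mean, so the dose differences do not enter them, and all points of a tissue share their arrays and slides. For Arntl and Nfil3, Pearson's r was 0.764 in lung (20 mice, Spearman's rho 0.779) and 0.775 in liver (19 mice, rho 0.777), and 0.739 and 0.787 without the 2 mice farthest out. In forestomach it was 0.185 (19 mice, rho 0.23), but 0.795 under median centring. The values under that centring were 0.849 in lung and 0.914 in liver, and without the arrays with a high share they were 0.755, 0.853 and 0.18 in lung, liver and forestomach. The share of all probes with a higher r to Arntl was 0.098% in lung, 0.0479% in liver and 34.3% in forestomach.

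For Arntl and Dbp r was −0.908, −0.872 and −0.684 in lung, liver and forestomach (rho −0.913, −0.802 and −0.677), and −0.864, −0.832 and −0.641 without the 2 mice farthest out. The share of probes with a lower r was 0, 0 and 0.0482%. Nfil3 and Dbp gave −0.774, −0.866 and −0.299. Tef, which encodes a relative of DBP, gave −0.89, −0.841 and −0.449 with Arntl. The r of Arntl and Dbp under median centring was −0.183, −0.381 and 0.279.

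**Figure D3:**
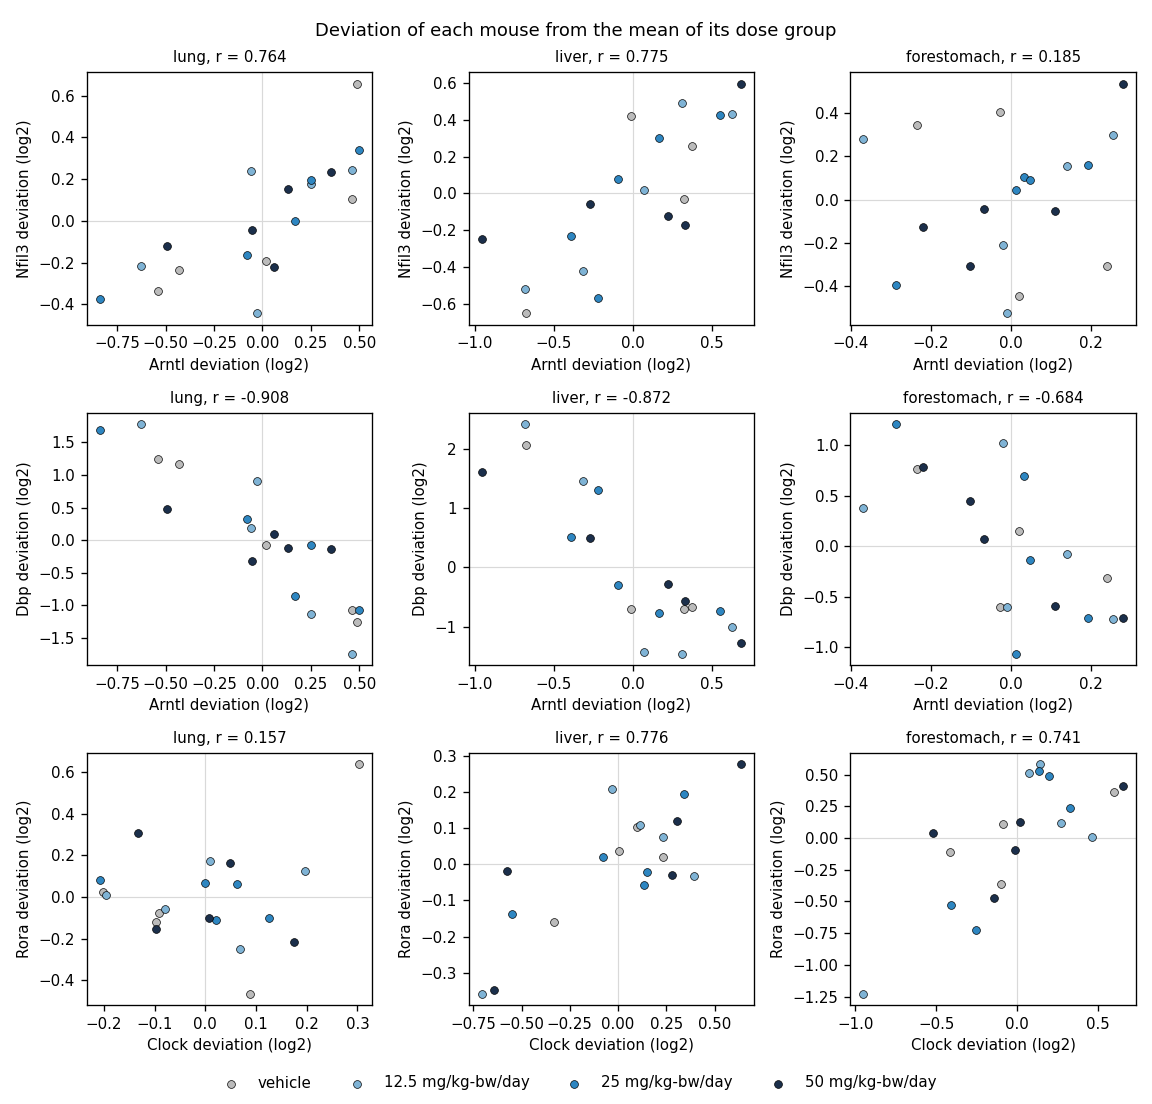
Deviation of each mouse from the mean of its dose group (log2) for pairs of clock genes, with Arntl against Nfil3 and against Dbp in lung (20 mice), liver (19) and forestomach (19). Points rise together for Arntl and Nfil3 in lung and liver (r = 0.764 and 0.775) and fall for Arntl and Dbp in all 3 tissues.

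The remaining members followed Arntl less. Arntl and Clock gave r of 0.398, 0.47 and −0.145 in lung, liver and forestomach. Of the 15 pairs among the 6 genes a positive r was found for 14 in lung, 11 in liver and 11 in forestomach. The medians were 0.443, 0.25 and 0.165. Clock and Rora gave 0.776 in liver, 0.741 in forestomach and 0.157 in lung. The lung value was −0.239 without the 2 mice farthest out and 0.859 under median centring. The liver value fell to 0.408 without the 4 arrays with a high share of probes above background, while the lung value without its 5 such arrays was 0.638. Over the liver arrays this share itself had an r of −0.834 with Clock and −0.704 with Rora, and its part in their relation was not tested.

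Over all 58 arrays, after the mean of each tissue was subtracted, Nfil3 had the highest r with Arntl of 11369 named genes above background in all 3 tissues, at 0.696. It was followed by Lonrf3 (0.626), Rnf125 (0.616), Avpr1a (0.579) and Pnrc1 (0.571). At the other end stood Dbp (−0.86), Tef (−0.713), Nr1d2 (−0.617), Tspan4 (−0.567) and Nr1d1 (−0.541), of which 4 are clock genes of the repressor and output list. Clock ranked 438 from the top (0.303) and Rora 4548 (0.0893), and Npas2 and Cry1 were too dim to be ranked. These values include the differences between doses. With the mean of each dose group subtracted, Nfil3 again ranked 1 (0.65) and Dbp stood at −0.859. In forestomach alone the r of Nfil3 with Arntl was 0.331 with the tissue mean subtracted and 0.185 with dose-group means subtracted. The ranks were computed with loess only. They were not computed under median centring, where the r of Arntl and Dbp within dose groups was −0.183, −0.381 and 0.279 in lung, liver and forestomach.

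**Figure D4:**
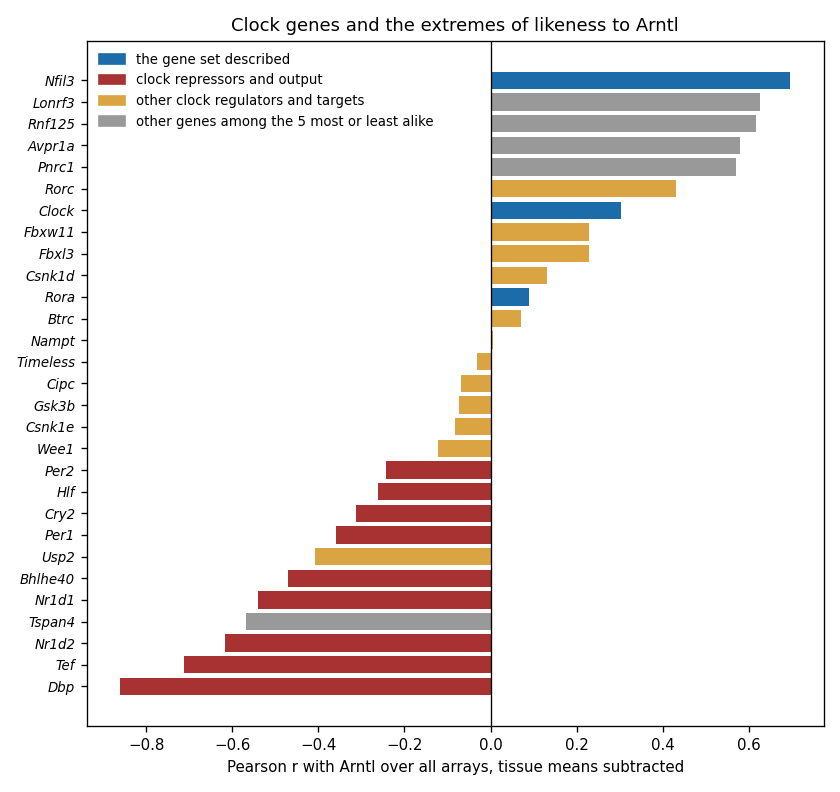
Pearson's r with Arntl over 58 arrays after subtraction of tissue means, for members and other clock genes above background in all tissues and for the 5 genes most and the 5 least like Arntl. With loess, Nfil3 (0.696) is the most and Dbp (−0.86) the least alike. The ranks were not computed under median centring.

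The other clock genes were taken from 2 lists. Of the 12 genes of repressors and output, 0 passed the thresholds at 50 mg/kg-bw/day in any tissue by limma, and 7, 7 and 9 were higher in lung, liver and forestomach, with medians of 0.03, 0.06 and 0.13. At an unadjusted p of 0.05, 5, 0 and 3 were higher and 0 lower in each, where 8.81, 6.84 and 3.89% of all probes passed in either direction. In lung the higher genes were led by Dbp (2.22, SE 0.613), Nr1d1 (1.44, SE 0.402) and Nr1d2 (1.11, SE 0.316), whereas Per1 and Per2, the period genes, differed by −0.64 (SE 0.386) and −0.32 (SE 0.276). In forestomach Dbp, Nr1d1 and Nr1d2 differed by 1.28, 0.92 and 0.65. Of the 15 other regulators and targets of the clock, 0 passed in any tissue by limma, and 9, 3 and 9 were higher, with medians of 0.02, −0.08 and 0.02. At an unadjusted p of 0.05, 1 was higher and 1 lower in lung, 2 were lower in liver and 0 passed in forestomach.

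The same mice could be followed across tissues, 19 of them in each pair of tissues. The deviations of Arntl in lung and liver had an r of 0.576 (rho 0.498, and 0.613 without the 2 mice farthest out), and 3.71% of probes had a higher one, with a median over probes of 0.0974. Cry1, which was above background on no liver array, had an r of 0.669 between lung and liver (rho 0.465), with 1.52% of probes higher. An r of this size was thus also found for a gene at background. No mouse had lung and liver on the same slide. Between lung and forestomach, where 18 of 19 mice had both arrays on the same slide, the r of Arntl was 0.376 and that of Nfil3 0.809 (rho 0.819, and 1.04% of probes were higher). With slide means subtracted, Nfil3 gave 0.608. Nfil3 in liver followed the other tissues less closely, with r of 0.161 to lung and 0.237 to forestomach. These 2 values were 0.356 and 0.476 without the 2 mice farthest out, and 0.29 and 0.49 under median centring. Dbp gave 0.698, 0.527 and 0.611 for lung and liver, lung and forestomach, and forestomach and liver, and Per1 gave 0.825, 0.773 and 0.774.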

How the data were processed

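The authors hybridized each Cy5-labelled RNA with a Cy3-labelled reference on dual-colour Agilent arrays and deposited intensity values of Agilent Feature Extraction, as median spot brightness before correction. The log10 ratios in the same output are, per the file headers, background-subtracted and dye-normalized by that software. The log2 ratios deposited by the authors were LOWESS-normalized. Their correlation with the loess-normalized ratios computed here was 0.996 to 0.999 in lung, 0.997 to 0.999 in forestomach and −0.007 to 0.007 in liver. The authors' liver values were therefore not used. Each sample is a mouse's tissue, and the number of arrays limits the precision.

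Log2(Cy5/Cy3) of median signals was computed here without background subtraction, normalized by loess within arrays, with repeated spots averaged per probe and outlier spots left out. Each tissue was fitted with limma 3.58.1 (R 4.3.3, the data.table package at 1.17.8, statmod 1.5.0) over 4 groups. A joint fit of 12 groups was used for vehicle tissues and for dose differences between tissues. P-values were two-sided, adjusted by Benjamini-Hochberg over 55681 probes, with thresholds of 0.05 and 1.5-fold. The procedure was checked on simulated data. The members and gene lists were chosen with earlier results of these data known. Named genes are the members, genes of both clock lists, and the 5 most and 5 least like Arntl. Markers of lung, liver, forestomach, glandular stomach, fat cell, heart muscle, skeletal muscle, B cell and T cell were summarized as array means. So were heat shock chaperones, cold-induced genes and glucocorticoid-responsive genes. The methods give 4 vehicle mice for IP and the labels number 5 in lung, and all 5 were used. Columns left out as those of other samples numbered 0. Alternatives were other background corrections, normalizations, filters and fits, the Fs statistic, each vehicle or IP mouse left out, and the replicate block.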

Additional observations from a re-analysis of the deposited data

Results flagged for a closer look

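In 3 of 72 combinations of gene, tissue and dose, 1 mouse lay apart from the rest by Dixon's ratio, the gap to the nearest mouse over the range of the group, a number of the size that chance gives when about 1 group in 20 passes. Forestomach Clock at 12.5 mg/kg-bw/day had a ratio of 0.725, with mouse 6 at 0.72 and the others at 1.74 to 2.13. The same array gave the lowest forestomach Rora of all, 0.78. Liver Nfil3 at 50 mg/kg-bw/day had a ratio of 0.773, with mouse 18 at 1.90 and the next at 1.25. Forestomach Nfil3 at 25 mg/kg-bw/day had a ratio of 0.788, with mouse 14 at −1.46 and the others at −1.02 to −0.90. Mouse 14 also had the lowest lung Nfil3 (−1.99) and lung Arntl (−0.47) of all mice, on a lung array with 70.4% of probes above background.

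At 25 mg/kg-bw/day Cry1 was below the vehicle mean in every lung and forestomach and above it in every liver. The log2 fold changes differed by −0.332 between lung and liver and by 0.257 between liver and forestomach. These differences were not tested, and Cry1 was above background on no array of that dose.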

How the results depend on the processing

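The number of the 6 genes past the thresholds in lung at 50 mg/kg-bw/day, 1 (Nfil3), was 0 with arrays centred on their medians, with Cy5 alone, with the scanner software's log ratio, with vehicle and 1 dose fitted alone, and, an alternative chosen after seeing the data, without arrays on which over 70% of probes were above background. It ranged from 0 to 1 over the mice left out, and was 0 without vehicle mouse 1, 2 or 5 or without mouse 17, 18, 19 or 20. In lung at 25 mg/kg-bw/day it was 1 in place of 0 with slide as a block, a fit that called 59 of all probes in place of 7. The count between lung and forestomach of vehicle mice, 1 (Clock), was 0 under median centring, and ranged from 0 to 1 over the mice left out, 0 without forestomach mouse 1. Rora in lung against liver turned to 0.0067 (from −1.19) under median centring, and Arntl, which missed the test, to 0.69 (from −0.46). With mouse as a random replicate block (same-mouse correlation 0.0459), the paired fit changed no call between tissues, with Nfil3 at −2.51 (adjusted p = 4.6e-14) in lung against liver. In lung at 50 mg/kg-bw/day Nfil3 was lower in 11 of 11 alternatives other than mice left out, at −1.0 to −0.63. The Fs statistic gave the same counts for the 6 genes.

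Of 276 counts recomputed, 261 were within 1.5 times the reported count, and of 339 differences between tissues 316 kept direction and side of the threshold. The reported count was 0 for every dose comparison but lung at 50 mg/kg-bw/day, so much of the agreement of counts is 0 set against 0. A fall from 3 to 2, as between forestomach and liver of vehicle mice under median centring, is also within 1.5 times. Each gene had 1 probe, so the mean over its probes changed nothing. The authors' values gave no liver result, and the scanner's log ratio of Cry1 in liver was constant and gave no correlation. Signal over background limits Cry1 in all tissues and Npas2 in liver and forestomach.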
